A study of Mus musculus with 2 samples.

Results

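Smooth muscle contractile and regulatory genes were examined in ureters of mouse embryos at E13.5. They were 34 genes of 31870 gene names on the array, chosen by symbol: the proteins of the smooth muscle contractile apparatus, the switches that start and stop it, the adhesion and cross-linking proteins it pulls on, and the transcription factors that turn its genes on. All 34 were found, with 54 of 39429 probes, and 31 had at least 1 probe well above background. The Tbx2-GOF ureters carried cre at 1 allele of Tbx18 (Tbx18 cre/+) and a Tbx2 transgene in the X-linked Hprt gene (Hprt Tbx2/Y), so that TBX2, a T-box repressor, can be made wherever Tbx18 has driven cre. The control ureters carried the same Hprt Tbx2/Y allele with no cre (Tbx18 +/+). All embryos were male and of the outbred NMRI stock, and the RNA came from whole dissected ureters, epithelium included. There were 2 two-colour arrays, each with 1 Tbx2-GOF and 1 control extract: Tbx2-GOF was labelled with AlexaFluor647 (red) on array 1 and with AlexaFluor555 (green) on array 2. The labels do not say whether the arrays held separate embryos or pools, so every SD below is the spread between these 2 arrays and may be technical. Limma's intervals and p-values use that spread drawn toward the spread of all genes, and carry the same limit. In whole-tissue RNA, fewer cells of a type and less RNA per cell cannot be told apart.

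Smooth muscle contracts when calcium enters through voltage-gated channels and, bound to calmodulin, activates a kinase that phosphorylates the myosin light chain, so that smooth muscle myosin pulls on filaments of smooth muscle actin. Most genes of this apparatus are switched on by the serum response factor SRF, which binds CArG boxes (CC, a run of A or T, then GG) near their promoters and acts with myocardin or the MRTF coactivators. In the ureter the muscle coat forms from TBX18-positive mesenchyme under the influence of sonic hedgehog and WNT signals from the epithelium, and at E13.5 this programme is only starting.

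RefSeq promoter windows were matched for 29 of the 34 genes, giving 39 windows (some genes have several starts) from 250 bases before to 50 bases after each start (GRCm38.p6). Myocd, Tgfb1i1, Myh11, Actg2 and Tagln had no matched window, so neither motif below was searched for in them. A full CArG box lay in the windows of 5 genes (Srf, Myl9, Vcl, Cnn2 and Fhl2), or 6 of 39 windows, against 1.63% of all 32851 windows. With at most 1 G or C allowed in the A/T core, 11 of the 39 windows, of 9 genes, held a box, against 9.98% of all windows. The box reads the same on both strands, so 1 search covered both. The 4 below are shown because they hold the boxes of the defining actin (Acta2), of SRF itself, of the myosin regulatory light chain (Myl9) and of an SRF cofactor (Fhl2). Each gives the 250 bases before the annotated start, 5′ to 3′ on the gene's own strand. Capitals mark full CArG boxes and, for Acta2, which has none, the boxes with 1 G or C in the core. A box of that looser kind in Myl9, at -99, is left in lower case.
Acta2, chr19:34255374-34255623, minus strand: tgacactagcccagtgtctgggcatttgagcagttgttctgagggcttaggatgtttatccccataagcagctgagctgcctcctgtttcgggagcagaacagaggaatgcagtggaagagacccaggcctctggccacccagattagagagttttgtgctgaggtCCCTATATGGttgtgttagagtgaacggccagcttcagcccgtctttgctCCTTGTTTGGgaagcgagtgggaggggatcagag
Srf, chr17:46556163-46556412, minus strand: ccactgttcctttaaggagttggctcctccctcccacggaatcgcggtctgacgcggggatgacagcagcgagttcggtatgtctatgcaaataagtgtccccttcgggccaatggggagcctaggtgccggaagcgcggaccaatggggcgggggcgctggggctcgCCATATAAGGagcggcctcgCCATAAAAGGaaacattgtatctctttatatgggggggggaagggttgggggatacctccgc
Myl9, chr2:156775214-156775463, plus strand: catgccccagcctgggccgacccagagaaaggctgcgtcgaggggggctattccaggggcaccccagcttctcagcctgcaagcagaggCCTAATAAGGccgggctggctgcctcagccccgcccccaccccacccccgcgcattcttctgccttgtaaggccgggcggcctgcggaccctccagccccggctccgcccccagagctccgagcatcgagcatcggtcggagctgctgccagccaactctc
Fhl2, chr1:43196762-43197011, minus strand: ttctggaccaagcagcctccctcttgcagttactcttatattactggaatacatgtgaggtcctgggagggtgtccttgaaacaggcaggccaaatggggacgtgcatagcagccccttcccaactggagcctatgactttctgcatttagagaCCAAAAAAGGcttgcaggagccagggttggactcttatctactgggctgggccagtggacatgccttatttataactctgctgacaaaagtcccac
Counted from the start, with the last base before it at -1, the boxes begin at -84 and -34 in Acta2, -82 and -62 in Srf, -161 in Myl9 and -96 in the Fhl2 window shown. The core of the T-box half-site, GGTGTGA, or TCACACC on the other strand, was in 0 of the 39 windows and in 3.98% of all windows. No match says only that these letters are not in these windows.

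Few smooth muscle genes passed the test for a difference between genotypes. Of the 31 genes tested, 1 rose in Tbx2-GOF ureters (Synpo2), 0 fell and 30 did not pass limma's test at an adjusted p of 0.05 over all 21097 genes; 0.640% of all genes passed it. At an unadjusted p under 0.05 there were 4 (Synpo2, Pcp4, Fhl2 and Mylk), against 9.34% of all genes. The median log2 ratio of Tbx2-GOF over control was 0.09 over the 31 genes, with 0.08 on array 1 and 0.09 on array 2, and -0.00052 over all genes. The ratio had the same sign on both arrays for 20 of the 31, or 64.5%, against 51.2% of all genes. Both Tbx2-GOF signals lay above both control signals for 10 of the 31 genes, against 18.2% of all genes, and below them for 2 of the 31, against 16.3%. The groups overlapped for the other 19. The ratio was at least 1.5-fold in 1 direction on both arrays for 1 gene, Synpo2, and for 1.37% of all genes. For 24 of the 31, or 77.4%, the 95% interval of the ratio lay within 1.5-fold in either direction, against 83.7% of all genes. Signals below are normalized intensities in arbitrary units on a linear scale, which can be compared between extracts for 1 probe but not between probes.

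**Figure D1:**
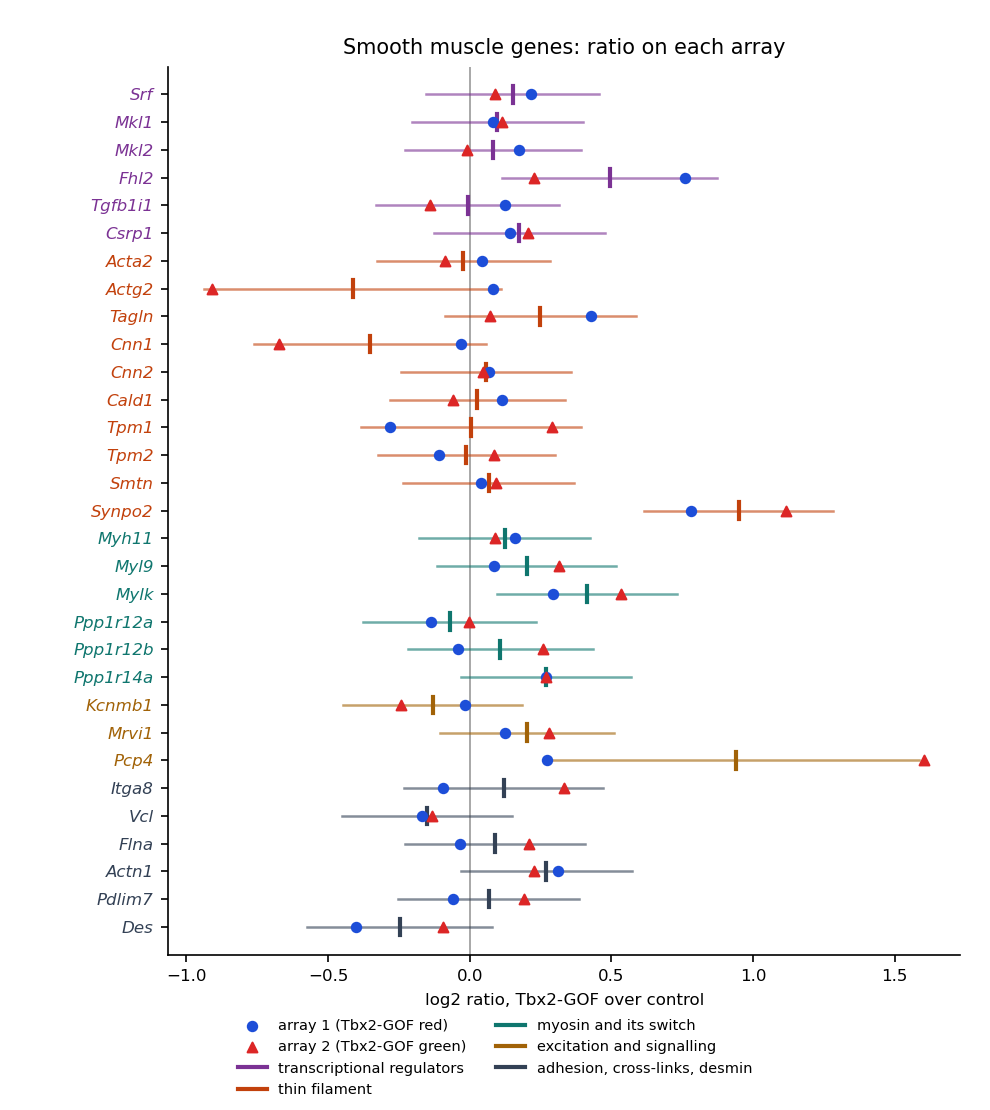
Log2 ratio of Tbx2-GOF over control (horizontal axis) for the 31 smooth muscle genes with a probe above background, by role. Blue circles are array 1 and red triangles array 2, the upright bars are their means and the lines limma's 95% intervals. Synpo2 and Pcp4 have the highest means, Actg2 and Cnn1 the lowest, and the line crosses 0 for 27 of 31 genes.

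Transcriptional regulators came first in the order of the programme. Myocd, which encodes myocardin, the coactivator that commits cells to smooth muscle, was close to background: its probe (chromosome 11, 64991930 to 64991989, mm9 as in the scanner files) had signals of 104.5 on array 1 and 103.9 on array 2 in Tbx2-GOF ureters, and 124.6 and 106.6 in control ureters. It was well above background only in the green channel of each array, so no ratio was tested. Srf, the factor that binds the CArG boxes shown above, had signals of 6256 and 5423 in Tbx2-GOF and 5387 and 5101 in control ureters. Its log2 ratio was 0.15 ± 0.09 (SD, n = 2, as throughout; 95% interval -0.15 to 0.46, adjusted p = 0.932), and its second probe averaged -0.0062. The groups did not overlap for the brighter Srf probe and did for the dimmer one.

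The MRTF coactivators carry actin signals to SRF. Mkl1 (now Mrtfa) had signals of 3501 and 3811 in Tbx2-GOF and 3309 and 3522 in control ureters, a log2 ratio of 0.10 with a 95% interval of -0.20 to 0.40. Mkl2 (now Mrtfb) was at 0.08 with an interval of -0.23 to 0.39. Both overlapped between genotypes. Among the LIM-domain cofactors, Csrp1, which joins SRF and GATA factors, was at 0.14 and 0.21 on arrays 1 and 2, and Tgfb1i1 (Hic-5), a focal adhesion protein, at 0.12 and -0.14. Fhl2, an SRF cofactor, had 3289 and 3255 in Tbx2-GOF, above 1940 and 2783 in control ureters. Its log2 ratios were 0.76 and 0.23, with a mean of 0.49 ± 0.38 and a 95% interval of 0.12 to 0.87, and it did not pass the test over all genes (adjusted p = 0.314).

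Thin filament genes included the 1 gene called, Synpo2, with a median over the 10 tested of 0.02. Acta2, smooth muscle alpha-actin, the marker most used for muscle layers (chromosome 19, 34316060 to 34316119), had signals of 16710 and 29979 in Tbx2-GOF ureters, against 16214 and 31861 in control ureters. The genotypes were nearly level on each array, at log2 ratios of 0.04 and -0.09, and the 95% interval of the mean ran from -0.33 to 0.28 (adjusted p = 1.00). With median centring the mean was -0.12 in place of -0.02, again without passing. Acta2 was spotted 10 times, and the SD of the log2 ratio between spots was 0.05 on each array. Tagln (SM22-alpha), an actin-binding protein of early smooth muscle (chromosome 9, 45738097 to 45738156), had 14289 and 23796 in Tbx2-GOF against 10630 and 22648 in control ureters. Its ratios were 0.43 and 0.07, within the spread between arrays (adjusted p = 0.766).

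Actg2, the gamma-actin of visceral smooth muscle (chromosome 6, 83462904 to 83462963), had signals of 983 and 2283 in Tbx2-GOF ureters and 928 and 4291 in control ureters. The genotypes were level on array 1 (log2 ratio 0.08), and Tbx2-GOF was lower on array 2 (-0.91). The mean of -0.41 ± 0.70 had a 95% interval of -0.94 to 0.11 (adjusted p = 0.710). Cnn1, calponin, which holds back the myosin motor (chromosome 9, 21913058 to 21913117), had 1018 and 1718 in Tbx2-GOF and 1040 and 2741 in control ureters. It showed the pattern of Actg2, level on array 1 (-0.03) and lower in Tbx2-GOF on array 2 (-0.67), with an interval of -0.76 to 0.06 (adjusted p = 0.655). Actins share much of their coding sequence, and whether their probes also bind a related actin was not tested.

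The other thin filament genes had ratios near 0. Cnn2, a calponin of wider expression, was at 0.06 (interval -0.24 to 0.36), Cald1, caldesmon, at 0.03 (-0.28 to 0.34), and Smtn, smoothelin, at 0.07 (-0.23 to 0.37). Of the tropomyosins, which lie along the actin filament, Tpm2 was at -0.01 (-0.32 to 0.30). Tpm1 had 5 probes above background on transcripts of different accessions, and their means ran from -0.20 to 0.0042. On array 1, 4 of these probes were negative, and on array 2 the 2 on the accession with the lowest means were near 0 (-0.02 each). Lmod1, leiomodin, the actin nucleator of smooth muscle, was not above background in any extract (74 and 79 in Tbx2-GOF, 81 and 83 in control ureters).

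Synpo2, synaptopodin 2 or myopodin, an actin-bundling protein of Z-discs and of smooth muscle dense bodies, was the gene that rose. Its brightest probe (chromosome 3, 122779459 to 122779518) had signals of 1468 and 1305 in Tbx2-GOF ureters, against 853 and 602 in control ureters. Both Tbx2-GOF extracts were above both control extracts, and the ratio was above 1.5-fold on each array. The log2 ratio was 0.95 ± 0.23 (1.93-fold, 95% interval 0.62 to 1.28, adjusted p = 0.0449). A second probe (122782094 to 122782153) had 168 and 185 in Tbx2-GOF and 142 and 142 in control ureters, or 0.31 on the log2 scale. The third (122815498 to 122815557) had 153 and 139 in Tbx2-GOF and 157 and 128 in control ureters, or 0.04. The second probe did not overlap between genotypes and the third did. The call was lost under 7 of 12 other settings, at adjusted p up to 0.501; with the mean of the 3 probes the ratio was 0.44 (adjusted p = 0.241).

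**Figure D2:**
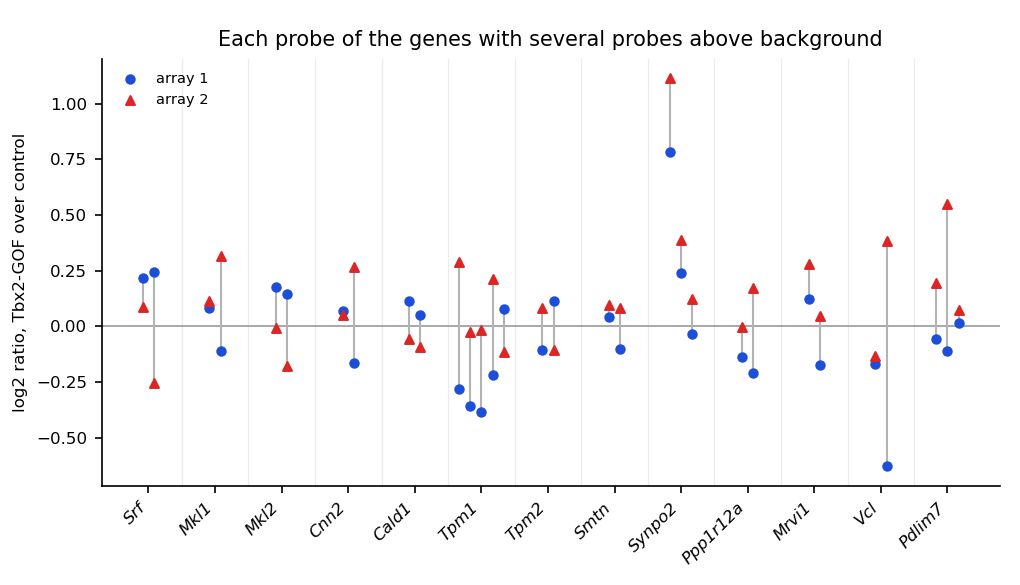
Log2 ratio of Tbx2-GOF over control (vertical axis) for each kept probe of the 13 genes with more than 1, from the brightest probe at the left of each gene. Blue circles are array 1 and red triangles array 2, joined by a line for each probe. The Synpo2 probes run from 0.95 down to 0.04 in mean, and those of most other genes straddle 0.

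In the myosin group none of 6 genes passed the test. Myh11, smooth muscle myosin heavy chain (chromosome 16, 14202190 to 14202249), had signals of 164 and 240 in Tbx2-GOF and 147 and 225 in control ureters. Its log2 ratio of 0.12 ± 0.05 had an interval of -0.18 to 0.43 (adjusted p = 0.974), and the groups overlapped. With processed signals or the series value table it was 0.25, which did not pass either. Myl9, the regulatory light chain, had 51488 and 63880 in Tbx2-GOF and 48506 and 51289 in control ureters, or 0.20 (interval -0.12 to 0.52, adjusted p = 0.843).

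Mylk, myosin light chain kinase, which starts contraction, had 665 and 742 in Tbx2-GOF, above 543 and 512 in control ureters. Its log2 ratio of 0.41 ± 0.17 had an interval of 0.10 to 0.73, short of the threshold over all genes (adjusted p = 0.314). Among the genes of the opposing phosphatase, Ppp1r12a and Ppp1r12b, its myosin-targeting subunits, were at -0.07 and 0.11 (intervals -0.38 to 0.24 and -0.22 to 0.43). Ppp1r14a (CPI-17), a smooth muscle inhibitor of that phosphatase, had 13146 and 13757 in Tbx2-GOF and 10904 and 11425 in control ureters. Its ratios on the 2 arrays, 0.27 and 0.27, were nearly identical, and with a spread shared over all genes it did not pass (interval -0.03 to 0.57, adjusted p = 0.629).

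Of the genes of excitation and its signalling, Cacna1c, the pore of the L-type calcium channel, was close to background, with 131 and 125 in Tbx2-GOF and 144 and 105 in control ureters. Kcnmb1, the smooth muscle subunit of the calcium-activated potassium channel, had signals of 136 and 153 in Tbx2-GOF and 138 and 181 in control ureters. Cacna1c was not tested, and Kcnmb1 was at -0.13 (interval -0.45 to 0.19), and at -0.33 with processed signals or the series value table (adjusted p = 0.558 and 0.546 by limma). Mrvi1 (IRAG), through which cGMP signalling lowers calcium release, was at 0.20 (interval -0.11 to 0.51), and at 0.07 as the mean of its probes.

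Pcp4, a small calmodulin regulator made in smooth muscle and in neurons (chromosome 16, 96747241 to 96747300), had signals of 6107 and 7427 in Tbx2-GOF ureters, against 5051 and 2442 in control ureters. Both Tbx2-GOF extracts were above both control extracts, but by unequal amounts, 0.27 on array 1 and 1.60 on array 2. The mean of 0.94 ± 0.94 had an interval of 0.29 to 1.59 and did not pass (adjusted p = 0.248). Neural markers were higher in Tbx2-GOF too. For 6 genes (Th, Dbh, Scg2, Vgf, Fabp7 and Sox10, grouped after their values were seen) the median log2 ratio was 1.09 on array 1 and 1.74 on array 2. On array 1 each was higher than Pcp4, the lowest being Dbh at 0.48. On array 2 the lowest was Sox10 at 1.24, below Pcp4. The summed signal of the 6 genes was 60492 and 63625 in Tbx2-GOF and 34756 and 20063 in control ureters. All 6 had both Tbx2-GOF signals above both control signals, and 4 were called. The control extract of array 2 was the lowest in Pcp4, in these markers and in Synpo2 (602). The part of the cells they mark in the Pcp4 and Synpo2 ratios was not tested.

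No adhesion or cross-linking gene passed the test. Itga8, an integrin chain of smooth muscle and mesenchyme, had 13250 and 10702 in Tbx2-GOF and 14134 and 8497 in control ureters, or 0.12 (interval -0.23 to 0.47). Vcl, vinculin, was at -0.15 (-0.45 to 0.15), Flna, filamin A, at 0.09 (-0.23 to 0.41), Actn1, alpha-actinin 1, at 0.27 (-0.03 to 0.57) and Pdlim7, a PDZ and LIM protein of actin filaments, at 0.07 (-0.25 to 0.39). Actn1 alone of these 5 had both Tbx2-GOF signals above both control signals (2558 and 2228 against 2059 and 1901), and it did not pass the test (adjusted p = 0.629).

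Des, desmin, the intermediate filament of all muscle types (chromosome 1, 75363404 to 75363629), had 1211 and 1483 in Tbx2-GOF and 1598 and 1584 in control ureters. Both Tbx2-GOF signals were below both control signals, at log2 ratios of -0.40 and -0.10 (mean -0.25, interval -0.58 to 0.08, adjusted p = 0.749). Skeletal and cardiac muscle markers had means below 0 as well, and their median was, like Des, farther down on array 1. Ckm was farther down on array 2 (-0.35 and -0.51 on arrays 1 and 2), and Tnnt1 was at -0.73 and 0.04. Of 26 measured, 8 fell and 0 rose, namely Mstn, Chrna1, Acta1, Cox6a2, Myh8, Myh7, Tnni2 and Tnnt3; Acta1, skeletal actin, was at -1.55. Ttn, titin, and Myh3 were lower still in mean (-1.99 each) without passing. The median of the 26 was -1.91 on array 1 and -0.69 on array 2, their summed signal was 48374 and 106090 in Tbx2-GOF and 135490 and 148520 in control ureters, and the muscle-determining factor Myod1 was above background in all 4 extracts. Their part in the Des ratio was not tested. Synpo2, which skeletal muscle also makes, was higher in Tbx2-GOF, and the part of skeletal muscle in its value was not tested.

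**Figure D3:**
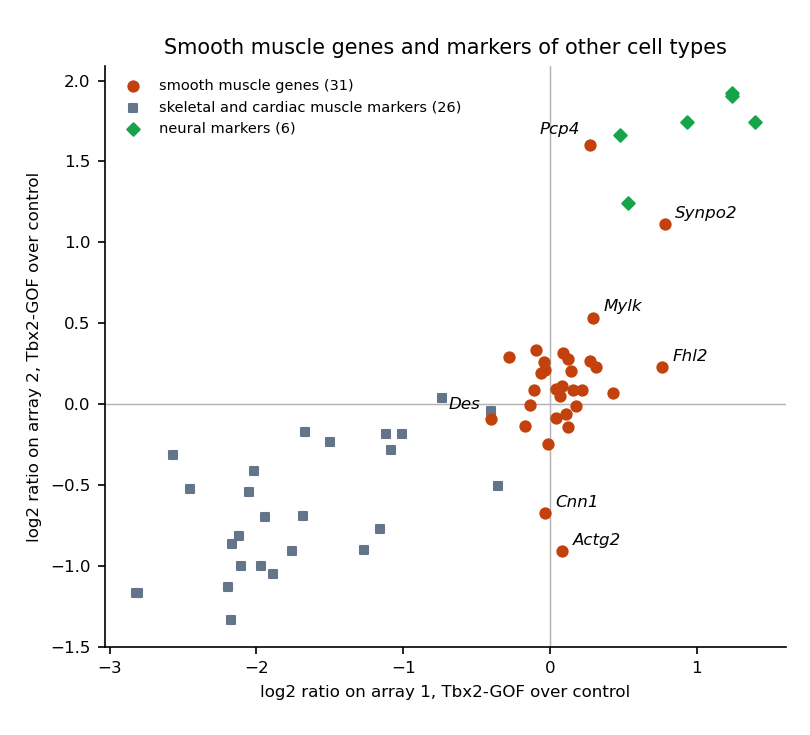
Log2 ratio of Tbx2-GOF over control on array 1 (horizontal) and array 2 (vertical) for the 31 smooth muscle genes (orange circles), 26 skeletal and cardiac muscle markers (grey squares) and 6 neural markers (green diamonds). Pcp4 (0.27 and 1.60) lies to the left of the neural markers (medians 1.09 and 1.74). Synpo2 (0.78 and 1.12) lies below them and is the 1 smooth muscle gene at 1.5-fold or more on both axes.

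Several contractile genes had higher signals on array 2 than on array 1. Acta2, Actg2, Tagln and Cnn1 were at least 1.5-fold higher on array 2 than on array 1 in both genotypes, 4 of the 31 genes against 0.578% of all genes; 0 of the 31 were lower by as much, against 0.251%. Actg2 was higher by 1.22 on the log2 scale in Tbx2-GOF and 2.21 in control ureters, a mean of 3.28-fold. Cnn1 was higher by 0.75 and 1.40, Tagln by 0.74 and 1.09, and Acta2 by 0.84 in Tbx2-GOF and 0.97 in control ureters. Myh11 came next with 0.54 and 0.61. This comparison was made after the values were seen. The regulators (Srf at -0.14, Mkl1 at 0.11, Mkl2 at 0.07), the tropomyosins (Tpm1 at -0.17, Tpm2 at 0.05) and Myl9 (0.20) did not share the difference. Itga8 was lower on array 2 in both genotypes (-0.31 in Tbx2-GOF and -0.73 in control ureters).

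The array difference was not tested, and array and extract cannot be told apart. Tbx2-GOF was read in red on array 1 and green on array 2, and control the other way round, and the 4 genes were higher on array 2 in both genotypes. Among the marker lists, Upk3a, a uroplakin of the differentiating urothelium, was also higher on array 2, by 1.52 on the log2 scale in Tbx2-GOF and 1.54 in control ureters, as were Cox6a2 and Tnni2 of skeletal muscle (2.13-fold and 2.09-fold in mean). No gene of the endothelial, pericyte, fibroblast or ureteric mesenchyme lists was 1.5-fold apart between the arrays in both genotypes. In the pericyte and vascular muscle list, though, the highest mean difference was 0.92 on the log2 scale, with a list median of 0.11. Heyl of that list had 2029 and 2960 in Tbx2-GOF and 969 and 2371 in control ureters. The part of the cells marked by these lists in the contractile gene levels was not tested.

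**Figure D4:**
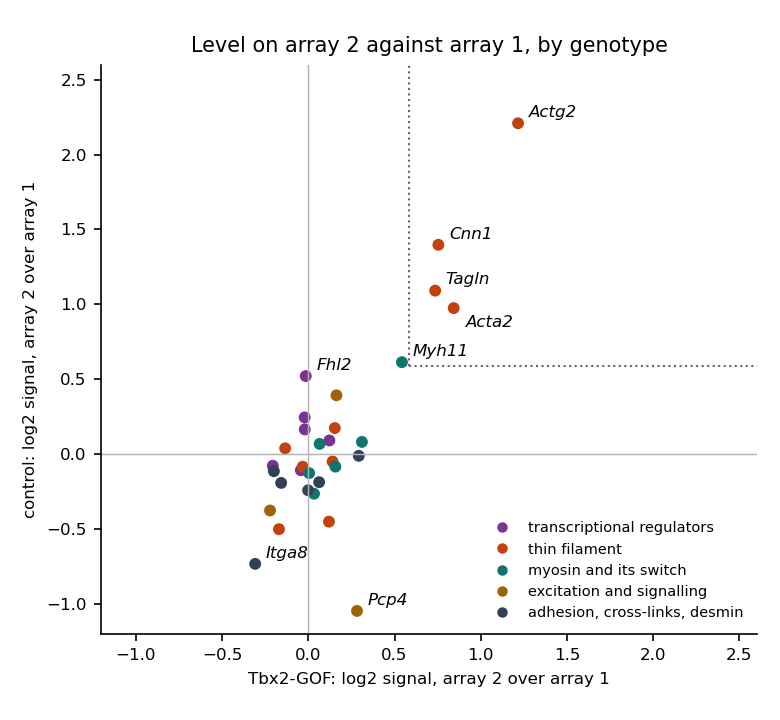
Log2 signal on array 2 over array 1 in Tbx2-GOF (horizontal) and control ureters (vertical), with 1 point for each of the 31 smooth muscle genes, coloured by role. The dotted corner marks 1.5-fold higher in both genotypes: Acta2, Tagln, Cnn1 and Actg2 lie inside it and Myh11 just outside.

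**Figure D5:**
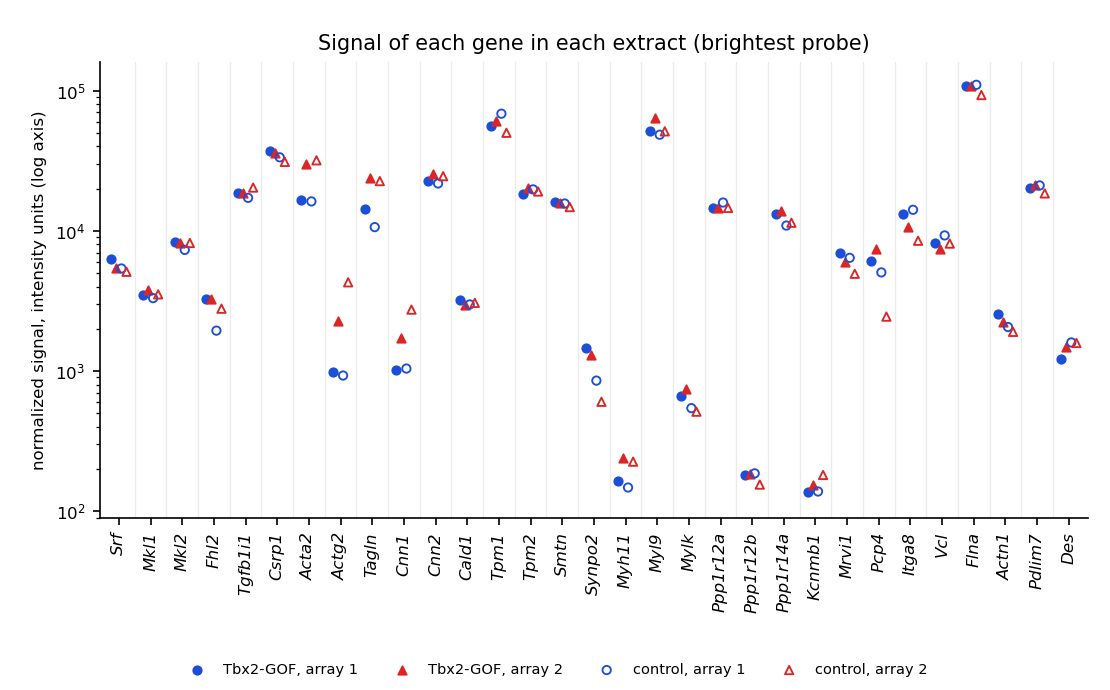
Normalized signal (log axis, intensity units) of the brightest probe of each smooth muscle gene in each of the 4 extracts. Filled symbols are Tbx2-GOF and open symbols control, circles array 1 and triangles array 2; heights are comparable within a gene only. For Acta2, Actg2, Tagln and Cnn1 the triangles lie above the circles in both genotypes, and for Synpo2 the filled symbols above the open ones.

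Few genes anywhere on the array passed the test (0.640% of all genes), and the counts for the lists around the contractile apparatus are to be read beside that share. Of 21 genes of calcium handling and excitation, 0 passed the test; Ryr2, a calcium release channel, was at 0.29 and 1.11, and Kcnmb2 at 0.38 and 0.84, whereas the calcium channel subunit gene Cacnb2 was at -0.28 and -0.36 and the potassium channel subunit gene Kcnmb4 had a mean of -0.10. The median of these 21 was 0.10. Of 35 further actomyosin and adhesion genes, 0 passed and the median was -0.0056; Smtnl2 (0.31) was among the highest, and Nexn (-0.49) and Ppp1cb (-0.39), the catalytic subunit of myosin phosphatase, were the lowest among those with 1 sign on both arrays.

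Of 42 further regulators of smooth muscle genes, 1 fell and 0 rose, where 0.640% of all genes passed in either direction. Klf4, a repressor of smooth muscle genes in vascular muscle (chromosome 4, 55540167 to 55540226), had 4328 and 3876 in Tbx2-GOF and 8631 and 15004 in control ureters, a log2 ratio of -1.47 ± 0.68 (adjusted p = 0.0434). With processed signals, the series value table or median centring 0 genes of the array passed limma's test (2064, 2060 and 1219 at an unadjusted p under 0.05), so neither Klf4 nor any other gene called here passed there. Heyl, a Notch target, was highest at 0.69, followed by the Notch ligand Jag1 at 0.39, and Prrx1, a mesenchymal factor, was at -0.70; none of these 3 passed. The list's median was 0.0096. Tbx18, with 1 allele replaced by cre in Tbx2-GOF, had 7532 and 6971 in Tbx2-GOF and 9347 and 10506 in control ureters, and Tbx2 had 4397 and 4197 in Tbx2-GOF and 4291 and 2854 in control ureters; neither passed (adjusted p = 0.266 for Tbx18 and 0.711 for Tbx2). Whether the Tbx2 probe reads the transcript of the Hprt allele is not known from the files, so this value does not check the labels. Of 13 pericyte and vascular muscle markers 1 rose, Rgs4 (0.84 and 1.39, adjusted p = 0.0431), with a list median of 0.05, and of 10 endothelial markers 0 passed, with a median of 0.28.

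All 13 ureteric mesenchyme and all 13 ureteric epithelium markers on the array were above background; their medians were -0.14 and 0.05, with 1 gene lower in each (Foxd1 and Upk3a). Of 10 fibroblast and adventitia markers 2 fell (Lum and Postn), with a median of -0.36. Of 17 kidney, adrenal, neural and liver markers, 8 rose (Pax8, Th, Gdnf, Fabp7, Scg2, Vgf, Six2 and Akr1b7) and 3 fell (Afp, Alb and Ahsg), with a median of 1.07; the part of these tissues in the smooth muscle values was not tested. The share of all probes well above background was 66.7% and 72.9% in Tbx2-GOF and 70.5% and 66.6% in control ureters. Every smooth muscle gene tested was well above background in all 4 extracts, and no probe was saturated. The number of arrays limits the precision of every value.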

How the data were processed

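Per the labels, each array was hybridised with 2 dye-labelled extracts; the submitters' processing notes name Feature Extraction 10.7.3.1. The deposited scanner files give, per spot, the average intensity in either dye, the local background, and a processed intensity from which the software removed background and spatial trend before balancing the dyes. They also hold a deposited log10 ratio, red divided by green. The deposited series value table holds a score, a signed linear fold ratio of unstated scale, centring and direction. Its median was 1 on both arrays. Read as Tbx2-GOF over control it matched the log ratio within 0.01 on the log10 scale for 99.2% and 98.8% of probes above background in both channels. Its centring stays unknown.

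From the mean signals, log2 ratios were computed with limma 3.58.1 in R 4.3.3 (normexp with offset 50, loess with span 0.3 and weight 0 for control and outlier spots, no scaling between arrays) and turned by dye so that positive means higher in Tbx2-GOF. Spots of 1 probe were averaged. Probes were kept where 1 genotype was well above background on both arrays (26471 of 39429), and each gene took its brightest kept probe. The 21097 genes were tested two-sided with lmFit and eBayes (1 residual and 6.36 prior degrees of freedom), with Benjamini-Hochberg adjustment over all genes. Single-channel signals came from the same ratios after Aquantile scaling. Scripts were tested on simulated data. Probe coordinates are on mm9. Whether a probe lies in an exon or UTR was not analysed here.

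The smooth muscle genes and all gene lists (calcium and excitation, actomyosin, regulators, skeletal and cardiac muscle, pericyte, endothelial, ureteric mesenchyme and epithelium, fibroblast, and kidney, adrenal, neural and liver) were chosen with earlier results of these data known. All 34 genes are named; from other lists, genes past the test and the highest and lowest with 1 sign on both arrays. A few genes of these lists are not reported here. The comparison of levels between arrays was added after seeing the data. Alternatives were other background corrections, processed signals, the value table, median centring, scaling, dim-probe filters, probe summaries, variance estimates and a separate-channel model.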

Additional observations from a re-analysis of the deposited data

How the results depend on the processing

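Over 12 alternatives the Synpo2 ratio stayed positive, between 0.44 and 1.04 on the log2 scale, with adjusted p between 0.0131 and 0.501 (limma); it passed in 5 and not in 7. The count of smooth muscle genes called higher was 1, and it was 0 with a normexp offset of 0, processed signals, the series value table, median centring, the mean of the probes, the probe-level fit and the separate-channel model. No smooth muscle gene was called lower in any of them; 3 to 5 had an unadjusted p under 0.05. Over all genes 135 were called, against 0 with processed signals, 0 with the value table and 0 with median centring (2064, 2060 and 1219 at an unadjusted p under 0.05), 313 with scaling between arrays, 276 with no filter on dim probes, 211 with the mean of the probes and 4 with the separate-channel model. The cause was not tested. The smooth muscle median of 0.0879 was 0.0800 with processed signals, 0.0800 with the value table, 0.0782 with median centring, 0.0750 with no filter and 0.0729 with the mean of the probes. Leaving out 1 array gave medians of 0.0829 and 0.0932, with no test. Of 372 values of the 31 genes in these settings, 4 changed sign, in Tpm1 and Tgfb1i1, both with ratios near 0. Many of these values could not change. The dim-probe filters, the probe-level fit, the trend and robust estimation and the separate-channel model kept each gene's main ratio, that of Synpo2 included. The mean of the probes altered only genes with several kept probes, and the value table repeated the processed signals for most of the 31. The 4 genes higher on array 2 were called in all 4 alternatives tried, which were chosen after seeing the data. Processed signals and the offset of 0 added Myh11. These alternatives only reprocessed the same 2 scans, so they do not test the difference between arrays. Both arrays were on 1 slide, so a slide block was not run. Each array sets 1 Tbx2-GOF against 1 control extract, and the test is on those ratios, so it is already paired by array. Dim probes (Myocd, Lmod1, Cacna1c, and near them Myh11 and Kcnmb1) limit what could be measured.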
